A study of Mus musculus with 6 samples.

Results

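The data cover 61 of the 41174 non-control probes on the arrays, those whose gene name is Clec followed by a digit or starts with Siglec, Cd300, Lilr or Pilr. They stand for 43 of the 28307 gene names on the arrays, most of them surface receptors of leukocytes: the C-type lectins, the Siglecs, the CD300 family, the leukocyte immunoglobulin-like receptors (LILR) and the paired immunoglobulin-like type 2 receptors (PILR). RNA came from proliferating satellite cells, the stem cells of skeletal muscle, of female mice. The Magic-F1 group (3 samples) is homozygous (+/+) for Magic-F1, an engineered factor derived from hepatocyte growth factor, and the control group (3 samples) carries the word MLC3F in its titles, which the labels do not explain. The transgene's promoter, the age of the mice and the number of mice per sample are not given in the sources used here, as far as labels and files go. Triplicates are called biological in the series, but no animal or culture is named, so p-values cover the spread among these samples alone, and part of it may be technical. Each RNA went onto its own single-colour Agilent array, and the comparison asks which receptor transcripts differ between Magic-F1 and control cells.

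Receptors of these families read sugars, lipids, sialic acid and the body's own surface proteins, and they are best known from macrophages, dendritic cells, granulocytes, platelets and natural killer cells rather than from muscle. Activating members carry a short tail and pair with an adaptor such as DAP12 (Tyrobp) or the Fc receptor gamma chain (Fcer1g), whose activation motif (ITAM) recruits the kinase SYK, or they carry a single-tyrosine form of that motif themselves. Inhibitory members carry an inhibition motif (ITIM) that SRC family kinases phosphorylate and that then recruits the phosphatases SHP-1 (Ptpn6), SHP-2 (Ptpn11) and SHIP-1 (Inpp5d). Many genes of these families lie side by side and come in pairs of opposite sign that share ligands.

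Levels are log2 signals relative to each array's 75th percentile, so that 0 is the signal of the spot at that percentile, and levels of different probes are not compared. That percentile was a signal of 341 to 356 on the Magic-F1 arrays and 275 to 292 on the control arrays, 0 spots were saturated, and the number of arrays limits the precision. A probe is called detected on an array where the scanner software flags it as well above background. Testing required detection on the 3 arrays of 1 group or both, which held for 34 of the 61 receptor probes, against 51.4% of all probes. Over the tested probes, arrays of the same group correlated by 0.996 or more and arrays of different groups by 0.848 or less.

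The labelled cell type and other cell types differed between the groups as a whole. Of 9 tested satellite cell and myoblast markers 9 fell, and their summed level, in units of the 75th percentile signal, was 60.6 to 62.1 on the Magic-F1 arrays against 623 to 658 on the control arrays. Pax7, which marks satellite cells, was detected on 0 of 3 Magic-F1 arrays and 3 of 3 control arrays, and Myf5 was detected on too few arrays to be tested. Macrophage markers rose for 11 of 12 tested genes and fell for 1, the scavenger receptor Marco, with a summed level of 871 to 909 in Magic-F1 cells against 66.04 to 69.3 in control cells. Neutrophil markers fell for 9 of 9 (0.516 to 0.558 in Magic-F1 cells against 585 to 631 in control cells), and platelet and megakaryocyte markers for 8 of 8 (8.05 to 8.59 in Magic-F1 cells against 66.2 to 76.9 in control cells). The part of these shifts in the receptor results below was not tested, and in RNA of whole samples fewer cells of a type and less RNA per cell cannot be told apart.

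Receptor genes moved in both directions, and more of the tested ones were higher than lower in Magic-F1 cells. Of 28 tested genes 16 rose and 11 fell by limma's test at an adjusted p of 0.05 (Benjamini-Hochberg, all tested probes of the array), and 1, Clec4n, did not pass. A share of 96.4% passing stands beside 88.3% of all 14904 tested genes (40.6% higher and 47.7% lower), so that passing the test alone sets a receptor gene apart from few others. By probe, 20 of 34 rose and 11 fell, against 87.7% of all tested probes passing (41.3% higher and 46.4% lower). Magic-F1 and control values were free of overlap for 27 of 28 genes, against 89.8% of all genes. With genes detected on 0 arrays of a group taken at the bound described in the next paragraph, 11 genes rose and 6 fell at least 2-fold, against 22.6% and 28% of all genes (50.6% together). At least 10-fold changes held for 6 of 28 (Cd300a, Cd300lb, Clec1b, Clec4b1, Pirb and Siglec1), against 6.78%. The median log2 change was 0.77 for the receptor genes (0.74 at the bounds) and −0.15 for all tested genes, and the median size of the change at the bounds, whatever its sign, was 2.35 against 1.02. The receptor median depended on how faint probes were treated: it was 0.12 with normexp background correction (−0.17 for all tested genes) and 0.0023 with no filter on dim probes (−0.26 for all). With scaling to spiked-in transcripts the median of all genes was 0.31, and the value under that scaling is given beside each small fall whose call it ends.

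Of the 28 genes, 17 were detected on all 6 arrays, and 10 of these rose, 6 fell and 1 did not pass, with a median of 0.63. Among all genes detected on all 6 arrays 40.2% rose and 48.1% fell. Of the other 11, 4 were detected on 0 Magic-F1 arrays and 5 on 0 control arrays. For these a bound (at least N-fold) is given, from the brighter group's mean against the higher, on each array, of the dim probe's own signal and the lowest signal of any detected probe. The fitted log2 change of such genes depends on the background correction, so the log2 change after normexp background correction with an offset of 50 is given beside it. Replicates 1 and 3 of both groups shared 1 slide and replicate 2 of both the other. The median change was 0.72 on slide 1 and 0.85 on slide 2. Slide 2 holds 1 array per group, and its values are part of the whole comparison. That 28 of 28 genes changed in the same direction there is thus partly built in, and the share over all genes is not given. On slide 1 alone, 25 of 28 genes kept their direction and their side of the threshold. Clec2d (log2 −0.29) and Clec2l (log2 −0.82) kept their direction there but did not pass. Clec4n, which did not pass in the whole comparison, changed sign on slide 1.

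**Figure D1:**
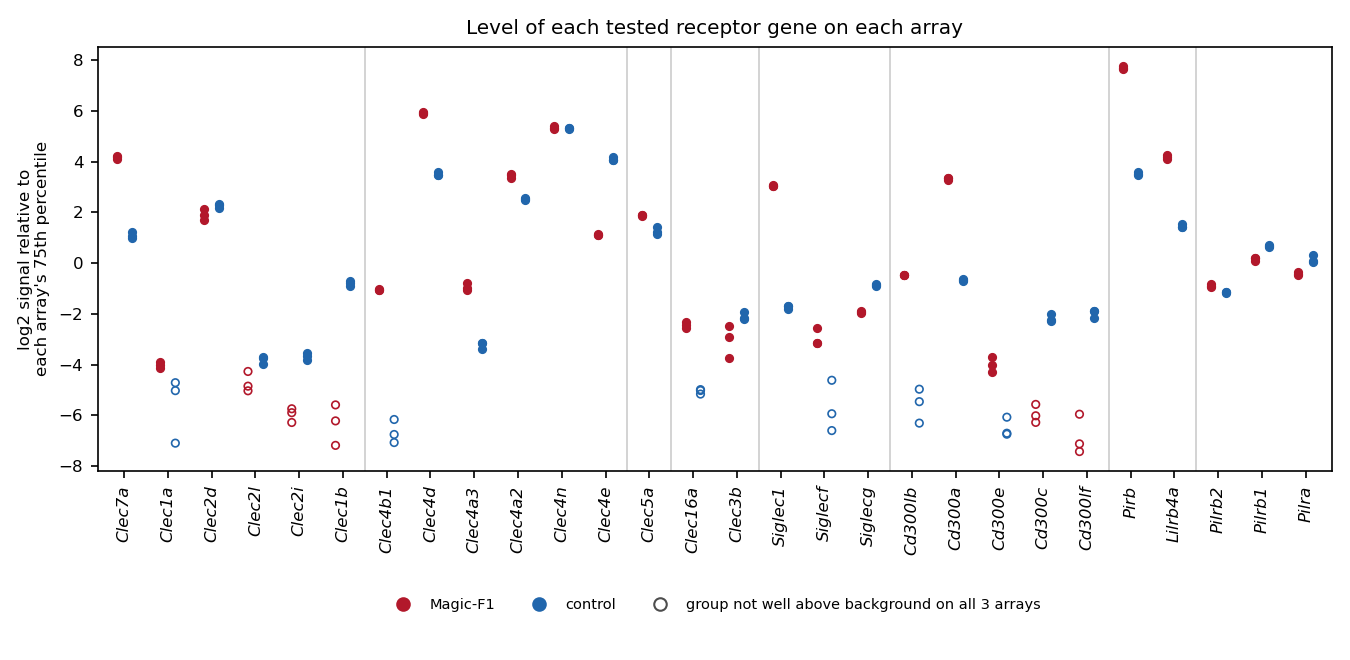
Level of each of the 28 tested receptor genes on each array, in log2 signal relative to the array's 75th percentile, with Magic-F1 arrays in red to the left of control arrays in blue; each point is 1 array and open points mark a group in which the gene was not detected on every array. Grey lines separate the families. The 3 points of each group lie apart from those of the other group for all genes but Clec4n.

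**Figure D2:**
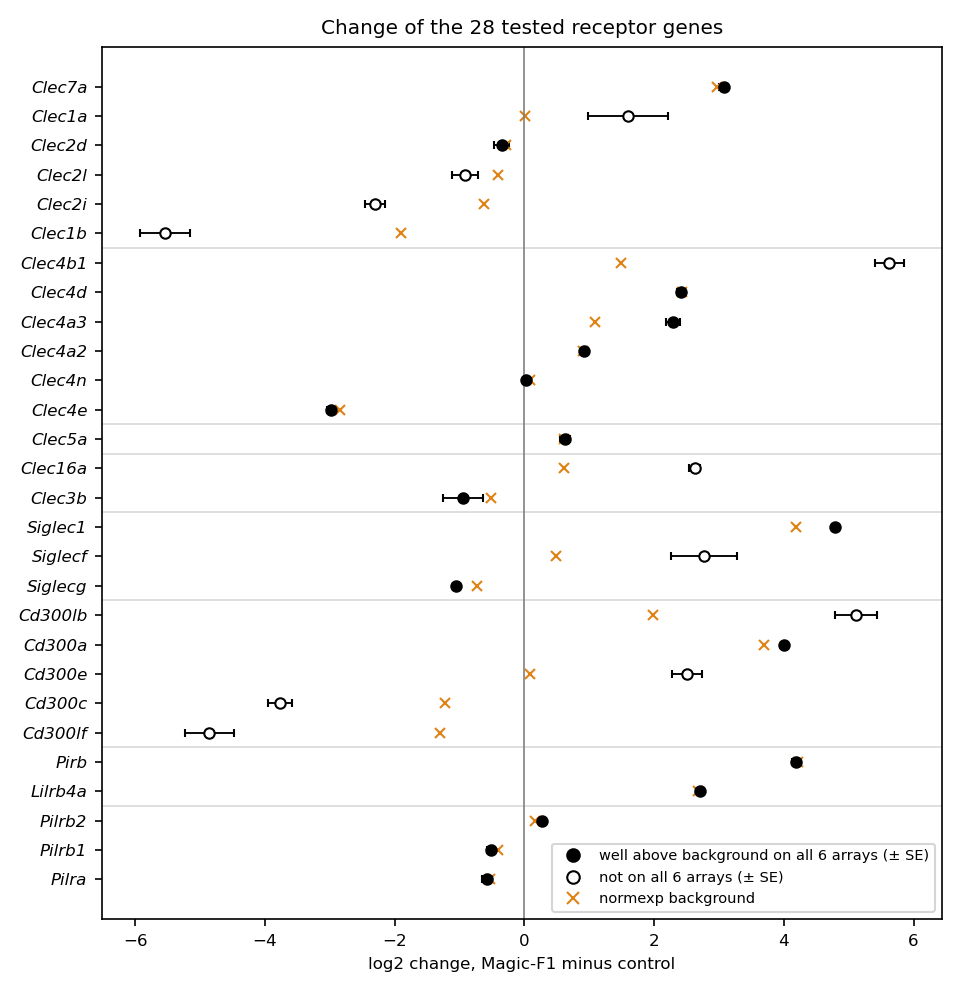
Log2 change (Magic-F1 minus control) of the 28 tested receptor genes with its standard error, in the same order as the levels, filled where the gene was detected on all 6 arrays and open otherwise; orange crosses give the change after normexp background correction. Bright genes such as Pirb, Clec7a and Clec4e have both marks at nearly the same place, while open points lie farther from 0 than their crosses.

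The Dectin-2 cluster of chromosome 6 held genes that rose, one that fell and one that did not pass, next to each other. Its lectins are pattern receptors of myeloid cells: Clec4n encodes Dectin-2, a receptor for fungal mannan, Clec4d encodes MCL and Clec4e encodes Mincle, receptors for a mycobacterial glycolipid that can join in 1 complex with the Fc receptor gamma chain. The 60-base probes of these neighbours are shown because they carry the contrast, and none of them shared 15 bases in a row with any other receptor probe. Coordinates are those of the files, on mm9, and a span longer than the probe means that its bases map in more than 1 block.
Clec4n, chr6:123194580-123196486 (+): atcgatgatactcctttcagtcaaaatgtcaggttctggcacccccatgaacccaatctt
Clec4d, chr6:123224788-123224847 (+): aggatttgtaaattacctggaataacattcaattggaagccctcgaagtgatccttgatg
Clec4e, chr6:123232878-123232937 (−): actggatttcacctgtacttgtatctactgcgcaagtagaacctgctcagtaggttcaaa

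Clec4d read 5.96, 5.94 and 5.86 on the Magic-F1 arrays, against 3.46, 3.47 and 3.62 on the control arrays. The groups lay well apart, and Clec4d rose 5.31-fold (log2 2.41, SE 0.06, adjusted p = 2.54e-07 in limma). Clec4e read 1.10, 1.10 and 1.16 in Magic-F1 cells, against 4.08, 4.06 and 4.18 in control cells. It fell 7.94-fold (log2 −2.99, SE 0.05, adjusted p = 6.51e-08 in limma), so that these partners, whose probes lie within 1 short stretch of the chromosome, moved in opposite directions. The same arrays showed lower neutrophil markers and higher macrophage markers, both cell types being known to make Mincle, and which of them this fall goes with was not tested. Clec4n read 5.32, 5.41 and 5.30 in Magic-F1 cells and 5.31, 5.32 and 5.33 in control cells. These values overlapped, and the difference was log2 0.02 (SE 0.05, adjusted p = 0.676 in limma). Clec4n was higher after quantile normalization (log2 0.16, adjusted p = 0.0347) and after spike-in scaling (log2 0.48), so a difference of this size depends on the scaling.

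The remaining genes of the cluster are the DCIR and DCAR lectins, and all that were tested rose. Clec4a2, the inhibitory receptor DCIR, read 3.49, 3.51 and 3.37 in Magic-F1 cells, against 2.57, 2.51 and 2.52 in control cells, a rise of 1.90-fold (log2 0.92, SE 0.05). Its second tested probe also rose (log2 0.64), but the files list accessions of both Clec4a2 and Clec4b1 for the brighter probe and of Clec4a2 alone for the second, so signal of the 2 genes may be mixed in the brighter one. Clec4a3, a DCIR relative, read −0.77, −0.96 and −1.07 in Magic-F1 cells, against −3.13, −3.38 and −3.15 in control cells, a rise of 4.88-fold (log2 2.29, and 1.09 with normexp background). Clec4b1, the activating receptor DCAR, read −1.05, −1.05 and −1.01 in Magic-F1 cells, against −6.75, −7.07 and −6.16 in control cells, where it was detected on 0 of 3 arrays. The rise was at least 15.2-fold (fitted log2 5.63, adjusted p = 1.4e-06 in limma, and log2 1.48 with normexp background). Clec4a1, a further member, read −4.65, −4.76 and −4.75 in Magic-F1 cells, against −6.76, −5.57 and −6.49 in control cells, but it was detected on 2 Magic-F1 arrays only and was not tested. Of 6 tested genes of the cluster, 4 rose and 1 fell, with a median log2 change of 1.60.

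Of 6 tested Dectin-1 and Clec2 lectins 2 were higher and 4 lower, against 40.6% and 47.7% of all tested genes. All of the 6 but Clec2l lie in the natural killer gene complex farther along chromosome 6. The calls of Clec1a, Clec2d and Clec2l did not hold under every alternative setting. Clec7a encodes Dectin-1, the receptor for beta-glucan of fungal walls, and Clec1b encodes CLEC-2, the podoplanin receptor best known from platelets. Their probes are shown because they have the highest and the lowest change of the 6.
Clec7a, chr6:129411739-129411798 (−): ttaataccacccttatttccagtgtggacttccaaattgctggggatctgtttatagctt
Clec1b, chr6:129355215-129355274 (+): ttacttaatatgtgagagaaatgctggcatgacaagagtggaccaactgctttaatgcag

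Clec7a read 4.13, 4.23 and 4.18 on the Magic-F1 arrays, against 1.06, 1.24 and 1.01 on the control arrays. It rose 8.41-fold (log2 3.07, SE 0.07, adjusted p = 1.75e-07 in limma), and the rise was 3.11 on slide 1 and 2.99 on slide 2. Clec1b went the opposite way. It read −7.18, −5.59 and −6.22 in Magic-F1 cells, where it was detected on 0 arrays, against −0.89, −0.77 and −0.71 in control cells. Clec1b was at least 22.6-fold lower (fitted log2 −5.54, SE 0.39, adjusted p = 1.91e-05 in limma, and log2 −1.91 with normexp background). Platelet and megakaryocyte markers were lower on the same arrays, with 2 of 8 detected on all Magic-F1 arrays and 8 of 8 on all control arrays. Podoplanin (Pdpn), the ligand of CLEC-2, stood at 0.56 ± 0.07 in Magic-F1 cells and 0.69 ± 0.19 in control cells (SD, n = 3 each, adjusted p = 0.265 in limma).

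The Clec2 genes encode ligands of the NKR-P1 receptors of natural killer cells, and 3 were tested. Clec2d read 1.91, 1.72 and 2.14 in Magic-F1 cells, against 2.29, 2.20 and 2.34 in control cells. The gap between the groups was narrow, and the fall of log2 −0.35 (SE 0.11, adjusted p = 0.0239 in limma) did not hold everywhere: under spike-in scaling the difference was 0.11, and the adjusted p was 0.0646, 0.0517, 0.0638 and 0.0717 without Magic-F1 replicate 1 or 2 or control replicate 1 or 3. Clec2i read −6.28, −5.74 and −5.89 in Magic-F1 cells and −3.65, −3.80 and −3.53 in control cells. Clec2i was at least 3.09-fold lower (fitted log2 −2.31, adjusted p = 1.42e-05 in limma, and log2 −0.62 with normexp background). Clec2l, a relative known from the brain, read −4.27, −4.85 and −5.03 in Magic-F1 cells, against −3.97, −3.73 and −3.69 in control cells, and fell by 0.92 on the log2 scale. Detected on 2 Magic-F1 arrays, it had an adjusted p of 0.00577 in limma but 0.0909 under spike-in scaling (log2 −0.46). Its call was also lost on slide 1 alone. The probe of Clec2i resembles that of its neighbour Clec2g, with 47 of 60 bases equal in the best alignment without gaps and a shared run of 17 bases, here in capitals.
Clec2i, chr6:128846546-128846605 (+): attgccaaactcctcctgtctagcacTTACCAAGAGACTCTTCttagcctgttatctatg
Clec2g, chr6:128933086-128933145 (+): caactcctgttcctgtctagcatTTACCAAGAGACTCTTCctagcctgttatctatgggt

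That Clec2g probe was near background throughout, at −5.25, −5.42 and −5.60 in Magic-F1 cells and −4.98, −5.44 and −4.94 in control cells, and was not tested. Clec1a, a lectin known from endothelial and myeloid cells, was faint, and its call depended on the settings. It read −4.13, −4.02 and −3.90 in Magic-F1 cells, against −4.71, −7.09 and −5.02 in control cells, where it was detected on 0 arrays. Clec1a was at least 1.81-fold higher (fitted log2 1.59, SE 0.62, adjusted p = 0.0491 in limma), and with normexp background the difference was 0.01 (adjusted p = 0.888). Without control replicate 2, the lowest value, the change was 0.85 (adjusted p = 0.00149). The adjusted p was 0.0935, 0.101, 0.118 and 0.0574 without Magic-F1 replicate 1, 2 or 3 or control replicate 3.

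**Figure D3:**
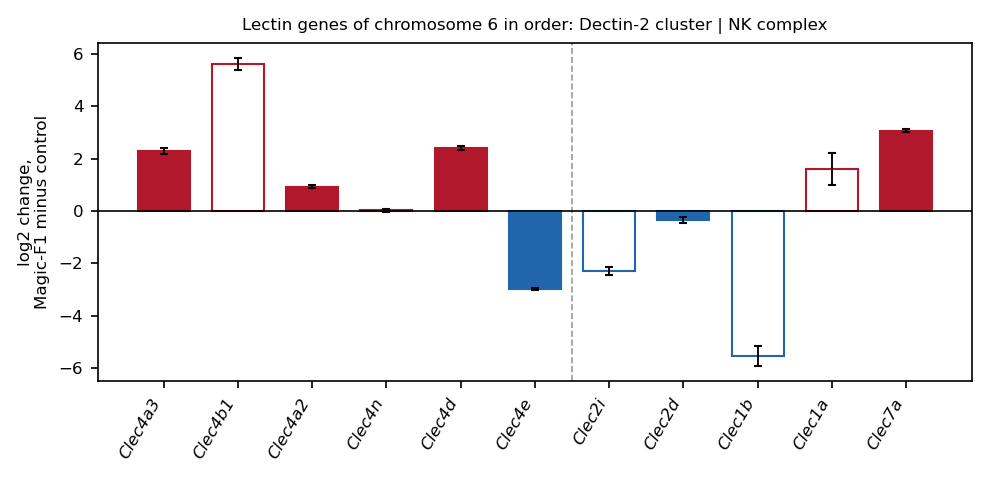
Log2 change (Magic-F1 minus control) with standard error of the 11 tested genes of the chromosome 6 lectin clusters, in their order along mm9 and not to distance; filled bars were detected on all 6 arrays and open bars were not. Red bars are higher and blue bars lower in Magic-F1 cells. Clec4d and Clec4e stand next to each other at 2.41 and −2.99, and Clec1b (−5.54) stands between Clec2d (−0.35) and Clec1a (1.59).

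Of the other C-type lectins of immune cells in this set, Clec5a alone was tested. It encodes MDL-1, which pairs with DAP12 in myeloid cells. Its brighter probe, on chromosome 6 at chr6:40527017-40527076, read 1.88, 1.87 and 1.92 in Magic-F1 cells, against 1.22, 1.17 and 1.42 in control cells. The groups did not overlap, and Clec5a rose 1.54-fold by this probe (log2 0.63, SE 0.08, adjusted p = 0.000282 in limma). The second tested probe gave log2 0.11 (adjusted p = 0.31), so the rise rests on 1 of 2 probes.

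Clec16a and Clec3b carry the family name but are not surface receptors of leukocytes. Clec16a, an intracellular protein of the endosomal and mitophagy pathways, read −2.43, −2.31 and −2.56 in Magic-F1 cells, against −5.02, −4.98 and −5.16 in control cells, where it was detected on 0 arrays. Clec16a was at least 5.64-fold higher (fitted log2 2.62, adjusted p = 5.7e-07 in limma, and log2 0.61 with normexp background), while its second probe was detected on 0 arrays. Clec3b, the secreted plasminogen-binding protein tetranectin, read −2.49, −3.72 and −2.91 in Magic-F1 cells, against −2.14, −2.18 and −1.94 in control cells. The Magic-F1 values were spread widely, and Clec3b fell by 0.95 on the log2 scale (SE 0.31, adjusted p = 0.0253 in limma). That call was lost under spike-in scaling (log2 −0.49, adjusted p = 0.168) and without Magic-F1 replicate 3 or control replicate 1 or 3 (adjusted p = 0.0521, 0.0546 and 0.0803).

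Among the Siglecs of the naming rule, lectins that bind sialic acid, 2 of 3 tested genes rose and 1 fell. Outside the rule, the Siglecs Cd22, Cd33 and Mag rose by log2 5.78, 1.26 and 0.83 (3.44, 0.99 and 0.67 with normexp background). Siglec1 (sialoadhesin), which macrophages use to bind sialylated cells and particles, carried the widest change of the 3 members. Both of its probes are shown because they differed in size.
Siglec1, chr2:130895209-130895268 (−): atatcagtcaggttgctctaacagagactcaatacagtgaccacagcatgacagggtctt
Siglec1, chr2:130909693-130909752 (−): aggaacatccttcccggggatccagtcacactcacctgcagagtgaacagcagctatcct

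The first of these probes read 3.05, 3.06 and 3.06 on the Magic-F1 arrays, against −1.69, −1.81 and −1.70 on the control arrays, and Siglec1 rose 27.7-fold by it (log2 4.79, SE 0.05, adjusted p = 2.27e-08 in limma). The second read −0.15, −0.27 and −0.13 in Magic-F1 cells, against −3.22, −3.34 and −3.53 in control cells, a rise of 9.09-fold (log2 3.18). Both went the same way, with normexp values of 4.19 and 1.96. Siglecf, named Siglec5 in the files (chr7:50614417-50614476) and known from eosinophils and alveolar macrophages, read −2.55, −3.13 and −3.16 in Magic-F1 cells, against −6.60, −4.61 and −5.93 in control cells. Detected on 1 of 3 control arrays, Siglecf rose 6.80-fold (log2 2.77, SE 0.51, adjusted p = 0.00228 in limma, and log2 0.49 with normexp background). Eosinophil markers were split, with the chemokine receptor Ccr3 higher (fitted log2 5.82) and the granule protein Prg2 lower (fitted log2 −4.39), and 5 of 8 listed ones were not tested. Siglecf itself is the third of the 3 tested. Of these, 2 were detected on all Magic-F1 arrays and 1 on all control arrays, so the fitted sizes rest in part on signals near background. Siglecg (chr7:50668051-50673194), an inhibitory receptor of B cells, read −1.93, −1.94 and −1.89 in Magic-F1 cells, against −0.84, −0.83 and −0.90 in control cells. It fell 2.09-fold (log2 −1.06, SE 0.05, adjusted p = 1.89e-06 in limma), beside B cell markers of which 1 rose and 3 fell of 5 tested. Siglece and Siglech, of which Siglech marks plasmacytoid dendritic cells, were detected on 0 arrays.

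The CD300 receptors are immunoglobulin-like proteins that bind membrane lipids. Those tested lie together on chromosome 11 and split into 3 genes that rose and 2 that fell. The untested Cd300lg lies farther off on that chromosome (chr11:101915572-101915631). Cd300a (chr11:114762469-114762528), an inhibitory receptor for phosphatidylserine of dying cells, read 3.29, 3.35 and 3.35 in Magic-F1 cells, against −0.67, −0.64 and −0.70 in control cells. It rose 16.01-fold (log2 4.0, SE 0.04, adjusted p = 2.46e-08 in limma), and its second probe, nearer to background, rose by log2 1.99 (0.37 with normexp background). Cd300lb (chr11:114789764-114789823), an activating receptor that pairs with DAP12, read −0.45, −0.45 and −0.48 in Magic-F1 cells and −4.97, −5.46 and −6.30 in control cells, where it was detected on 0 of 3 arrays. Cd300lb was at least 22.6-fold higher (fitted log2 5.12, adjusted p = 1.19e-05 in limma, and log2 1.98 with normexp background). Cd300e, a further activating receptor, read −4.01, −4.29 and −3.69 in Magic-F1 cells, against −6.70, −6.74 and −6.07 in control cells, where it was detected on 0 arrays. Cd300e was at least 1.95-fold higher (fitted log2 2.51, adjusted p = 7.91e-05 in limma), but log2 0.08 with normexp background (adjusted p = 0.26).

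The 2 CD300 genes that fell were both below the background limit in Magic-F1 cells. Cd300c (chr11:114820903-114820962), an activating member, read −6.27, −5.57 and −6.01 in Magic-F1 cells, against −2.25, −2.27 and −2.02 in control cells. Its accession is not in the gene table used here, so the name is that of the files, as it is for Clec7a. Cd300c was at least 8.63-fold lower (fitted log2 −3.77, adjusted p = 3.79e-06 in limma, and log2 −1.23 with normexp background). The probe named Cd300lf in the files (chr11:114985682-114987474), the name of an inhibitory receptor of myeloid cells, read −7.42, −5.95 and −7.12 in Magic-F1 cells, against −1.87, −1.90 and −2.16 in control cells. This probe was at least 9.94-fold lower (fitted log2 −4.86, adjusted p = 3.3e-05 in limma, and log2 −1.30 with normexp background). The accession of this probe is not in the gene table either, and the other Cd300lf probe, whose RefSeq accession is, was detected on 0 arrays, so which CD300 transcript fell is uncertain. Cd300lg was not tested.

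The LILR genes rose. Pirb, named Lilrb3 in the files, encodes the inhibitory paired receptor B, which binds major histocompatibility class I proteins on myeloid and B cells. Its 2 probes overlap by 50 bases, here in capitals, and are therefore nearly the same measurement.
Pirb, chr7:3664158-3664217 (−): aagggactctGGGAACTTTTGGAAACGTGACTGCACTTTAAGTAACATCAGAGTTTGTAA
Pirb, chr7:3664148-3664207 (−): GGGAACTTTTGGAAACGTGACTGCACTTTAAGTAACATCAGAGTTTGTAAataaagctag

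The first probe read 7.66, 7.71 and 7.76 in Magic-F1 cells, against 3.47, 3.53 and 3.58 in control cells, a rise of 18.2-fold (log2 4.18, SE 0.05, adjusted p = 3.14e-08 in limma). The second read 4.74, 4.66 and 4.80 in Magic-F1 cells, against 0.33, 0.30 and 0.59 in control cells, a rise of log2 4.33. Despite 50 shared bases the probes differed in level on every array, while their changes were close. Lilrb4a (chr10:51212976-51213891), an inhibitory receptor known as gp49B and named Lilrb4 in the files, read 4.25, 4.19 and 4.12 in Magic-F1 cells, against 1.44, 1.44 and 1.56 in control cells. It rose 6.52-fold (log2 2.71, SE 0.06, adjusted p = 1.41e-07 in limma). The files list an accession of the near copy Lilr4b for its probe as well, so the signal may come from either gene.

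The PILR genes moved little. Pilra (chr5:138264800-138265232), the inhibitory member, read −0.42, −0.37 and −0.46 in Magic-F1 cells, against 0.07, 0.10 and 0.32 in control cells, and fell 1.49-fold (log2 −0.58, SE 0.08, adjusted p = 0.000587 in limma). Pilrb1, an activating member that pairs with DAP12, read 0.20, 0.10 and 0.20 in Magic-F1 cells, against 0.69, 0.63 and 0.73 in control cells, and fell 1.44-fold (log2 −0.52, SE 0.05), by a probe for which the files list an accession of Pilrb2 as well. Both calls were lost under spike-in scaling (log2 −0.12 and −0.06). Pilrb2 read −0.81, −0.91 and −0.93 in Magic-F1 cells, against −1.14, −1.16 and −1.14 in control cells, a rise of 1.20-fold (log2 0.27), while its second probe gave log2 −0.03 (adjusted p = 0.823 in limma).

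Sorted by signalling role, both inhibitory and activating receptors were found on either side. Of 8 tested members known to carry an ITIM or to inhibit, 5 rose (Clec4a2, Siglecf, Cd300a, Pirb and Lilrb4a) and 3 fell (Siglecg, Pilra and the probe named Cd300lf, whose transcript is uncertain), with a median log2 change of 1.81. Of 11 tested members known to signal through an ITAM adaptor or a single-tyrosine motif, 6 rose (Clec7a, Clec4d, Clec5a, Cd300lb, Cd300e and Pilrb2), 4 fell (Clec1b, Clec4e, Cd300c and Pilrb1) and Clec4n did not pass, with a median of 0.27. This second list leaves out Clec4b1, named above as an activating receptor, which was at least 15.2-fold higher. Its count and median would be higher with that gene. The difference between these medians was not tested.

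Relatives of these receptors that the array files list under other names are no members by the naming rule, and their values stand beside the families. Of 10 such genes, without Cd22, Cd33 and Mag, 6 were tested, and 5 rose. The activating CD300 gene Cd300c2 stood at 6.42 ± 0.04 in Magic-F1 cells and 2.86 ± 0.15 in control cells (SD, n = 3 each), a rise of log2 3.56. Cd300ld rose by log2 3.13, and Cd300ld3, whose probe is listed with accessions of Cd300ld4 and Cd300ld5 too, was at least 11.3-fold higher. With these, 6 of 8 tested CD300 genes rose. The LILR relatives Lilra6 and Pira6, activating receptors that pair with the Fc receptor gamma chain, rose by log2 3.72 and by at least 8.93-fold, and a second Lilra6 probe rose by 1.62. Clec10a, a galactose-binding lectin of macrophages and dendritic cells, differed by log2 0.15 (adjusted p = 0.0812 in limma).

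The adaptors and enzymes through which the receptors signal were higher in Magic-F1 cells. The adaptor list rose for 3 of 3 genes. Tyrobp rose by log2 3.77, Fcer1g by 3.14 and Hcst, the adaptor DAP10, by 4.18, and the summed level of the 3 was 609 to 639 on the Magic-F1 arrays against 52.4 to 60.6 on the control arrays. Downstream of them, 10 of 11 tested genes rose. The adaptor Blnk rose by log2 7.65, the exchange factor Vav1 by 4.38, the phospholipase Plcg2 by 3.96 and the kinase Btk by 3.77. Syk, Malt1 and Bcl10 are named for their place behind Dectin-1, after their values were seen. Syk rose by log2 3.73 and Malt1 by 2.74 (0.92 with normexp background), while Bcl10 stood at 4.85 ± 0.05 in Magic-F1 cells and 4.91 ± 0.03 in control cells (SD, n = 3 each, adjusted p = 0.223 in limma). The SRC family kinases Lyn (log2 2.83), Fgr (log2 2.30) and Src (log2 1.34) rose. The 3 phosphatases of the inhibitory branch rose too, with Inpp5d at log2 5.70, Ptpn6 at 3.12 and Ptpn11, which all cells use, at 0.28. Many of these genes are known from leukocytes. On the same arrays 11 of 12 tested macrophage markers rose, while 9 of 9 neutrophil and 5 of 5 mast cell and basophil markers fell. The part of these shifts in the signalling genes was not tested.

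**Figure D4:**
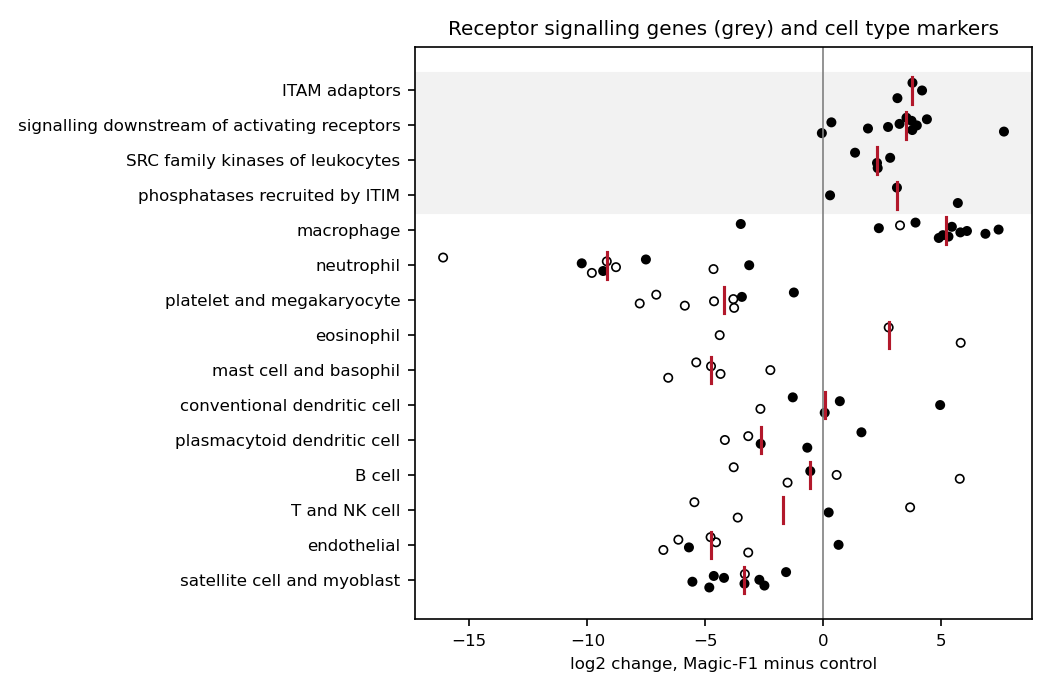
Log2 change (Magic-F1 minus control) of tested genes in 4 lists of receptor signalling genes (grey band) and 11 lists of cell type markers, 1 point per gene, filled where detected on all 6 arrays; red ticks are list medians. The signalling lists lie at or above 0 but for Bcl10 (−0.07), the macrophage markers have a median of 5.18, and the neutrophil (−9.18, or −8.18 at the bounds) and satellite cell (−3.34) markers lie below 0.

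Related lectins and immunoglobulin-like receptors outside the naming rule moved in both directions. Of 23 tested genes 16 rose and 6 fell, against 40.6% and 47.7% of all tested genes. Their median log2 change was 1.41, against −0.15 for all tested genes. This list holds Pirb, which is a member. The 4 largest fitted changes among those called, which for Klrb1a and Cd207 rest on control signals below background, were thrombomodulin (Thbd), an endothelial and monocyte protein with a lectin-like domain, at least 161-fold lower, the natural killer receptor Klrb1a, at least 20.1-fold higher, langerin (Cd207), at least 18.8-fold higher, and Cd72, an inhibitory lectin of B cells and macrophages, with a rise of 67.2-fold. Under normexp the log2 changes of these genes were −4.35, 2.0, 1.73 and 5.73.

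Other cell type markers moved with the receptors in their own ways. Mast cell and basophil markers fell for 5 of 5 tested genes, with a summed level of 0.0469 to 0.0554 on the Magic-F1 arrays against 1.55 to 1.70 on the control arrays, and 0 of them were detected on all Magic-F1 arrays. Endothelial markers fell for 6 of 7 and rose for 1 (0.221 to 0.254 in Magic-F1 cells against 8.32 to 8.73 in control cells). Conventional dendritic cell markers rose for 2 and fell for 2 of 5, and the defining genes Flt3 and Xcr1 were not tested. Plasmacytoid dendritic cell markers rose for 1 and fell for 4 of 5, and T and natural killer cell markers rose for 1 and fell for 2 of 4.

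The 27 receptor probes that were not tested account for the rest of the set. Of these, 23 were detected on 0 of 6 arrays and 4 on 1 or 2. They left 15 genes with no tested probe: Cd300lg, Clec11a, Clec12a, Clec12b, Clec14a, Clec2e, Clec2g, Clec2h, Clec3a, Clec4a1, Clec4f, Clec4g, Clec9a, Siglece and Siglech. Clec9a, a marker of cross-presenting dendritic cells, and Clec4f, a marker of Kupffer cells, are among them. Their signal was not detectable at this brightness, which does not show that the transcripts are absent.

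Promoters of the Clec4d and Clec4e neighbours and of Pirb are shown. The first 2 genes moved in opposite directions. Pirb, which rose, held the only match to the PU.1 motif among the receptor promoters searched. The sequences are the 250 bases before the start in RefSeq, on GRCm38.p6. Capitals mark matches on either strand to the motifs of PU.1, C/EBP, AP-1 and NF-kB, which are not all particular to myeloid cells.
Clec4d, chr6:123261857-123262106 (+): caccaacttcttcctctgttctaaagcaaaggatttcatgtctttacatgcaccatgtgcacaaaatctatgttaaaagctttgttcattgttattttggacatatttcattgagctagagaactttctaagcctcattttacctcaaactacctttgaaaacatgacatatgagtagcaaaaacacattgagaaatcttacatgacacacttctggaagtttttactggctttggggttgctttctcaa
Clec4e, chr6:123289872-123290121 (−): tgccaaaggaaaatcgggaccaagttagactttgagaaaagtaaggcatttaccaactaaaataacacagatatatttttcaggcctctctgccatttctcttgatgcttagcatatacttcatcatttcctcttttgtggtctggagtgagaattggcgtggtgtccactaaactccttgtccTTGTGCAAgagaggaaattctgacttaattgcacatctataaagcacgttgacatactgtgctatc
Pirb, chr7:3720383-3720632 (−): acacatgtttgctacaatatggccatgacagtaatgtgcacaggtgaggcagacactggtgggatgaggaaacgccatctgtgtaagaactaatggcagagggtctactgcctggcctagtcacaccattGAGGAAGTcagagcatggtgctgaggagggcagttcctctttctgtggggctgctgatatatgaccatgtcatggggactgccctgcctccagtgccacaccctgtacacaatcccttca

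Clec4e held 1 match to the C/EBP motif TTGCNNAA and Pirb 1 to the PU.1 motif GAGGAAGT, while Clec4d held none of the motifs searched. Over all 32851 RefSeq promoters of this length, 9.56% held the C/EBP motif and 2.44% the PU.1 motif. Of the 40 promoters found for 36 of the receptor genes, 9 held the C/EBP motif, 1 the PU.1 motif, 4 the AP-1 motif TGANTCA (6.75% of all) and 2 the NF-kB motif (7.25% of all). The C/EBP matches lay in tested genes that rose (Cd300a, Clec16a and Pilrb2) and that fell (Clec4e, Pilra and Pilrb1). Those of the PILR genes sit in nearly the same sequence, so the 9 are not separate observations. No motif overlapped another in the 3 promoters shown. A match is a description of these letters and not a shown binding site.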

How the data were processed

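Total RNA of 6 samples was Cy3-labelled and read on Agilent arrays of design 014868, per the labels and the file headers. The intensity of a spot is its processed signal after background subtraction by Agilent Feature Extraction 10.5.1.1, with flags and mm9 positions, and not normalized between arrays, per the file headers. A further table deposited by the authors holds log2 values. It equals the log2 processed signal for 4 arrays (100% of spots) and for 0% of spots on both arrays numbered 1, for which the further step is not stated here. Its column medians were 3.34, 3.29 and 3.40 (Magic-F1) and 3.16, 3.16 and 3.23 (control), in replicate order, with no centring and no ratio.

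From the scanner files, control spots were left out, outlier spots (59 to 89 per array) were set to missing, each array's 75th percentile was subtracted from its log2 processed signals, and spots of a probe were averaged. Groups were taken from the source names and replicate numbers from the titles. Limma 3.58.1 (lmFit and eBayes, R 4.3.3) compared the groups over 21183 probes (those with a missing value on any array were left out), with group as the only term, Benjamini-Hochberg adjustment at 0.05, 2-sided. The median residual SD was 0.093. A gene is read from the tested probe of highest mean over 6 arrays, and other probes are given where they disagree. Names follow RefSeq accessions in a GRCm38.p6 table (53 of 61 receptor probes), otherwise the files. Per-array values are given for all genes of a role list with 6 or fewer tested genes, which covered all 28, up to 4 genes come from each list around them, and marker lists are given as counts, summed levels and defining genes. Some results of those lists are not reported here. Members and lists were chosen with earlier results of these data known, so no list was tested. Replicate numbers were not used to pair samples in the main fit. Deviations of arrays numbered 1, 2 and 3 correlated by −0.003, 0.108 and 0.069 between the groups. The highest values with other numbers were 0.048, 0.025 and −0.022. Those of numbers 2 and 3 were thus the higher, and these small values do not settle whether samples were paired. A fit with the replicate number as a term is given below. On simulated arrays of 21183 probes, 50 probes were shifted by each size. The test found 36% of shifts of 0.5 (log2), 82% of shifts of 1, 94% of shifts of 2 and 86% of shifts of −1, and made 14 false calls. In the data 87.7% of tested probes passed, so the adjustment was stricter in the simulation. These shares therefore do not carry over to the data. Alternatives covered background correction, scaling, filters on dim probes, slide and replicate as blocks, slides alone, left-out arrays, the variance model, the deposited table and the probe chosen for a gene. No fold is given where both groups were below background.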

Additional observations from a re-analysis of the deposited data

How the results depend on the processing

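Over 20 alternatives, 19 of the 28 receptor genes kept their direction and their side of the threshold wherever a value could be had, and 520 of 549 values did so. The exceptions were Clec1a, Cd300e, Clec2d, Clec2l, Clec3b, Clec4n, Pilra, Pilrb1 and Pilrb2. With the replicate number as a term (replicate block) 26 genes were called, and Clec1a was not (adjusted p = 0.0545 in limma). Scaling to the spiked-in transcripts turned Clec2d to 0.11 and the median of all tested genes to 0.31, left 6 receptor genes lower and moved the receptor median to 1.23. Clec4n changed sign to −0.012 within slide 1, and over left-out arrays it ranged from −0.013 without Magic-F1 replicate 2 to 0.045 without Magic-F1 replicate 3. The receptor median was 0.57 with all tested probes of a gene averaged, 0.90 with median scaling, 0.12 with normexp background, 0.0023 with no filter on dim probes, which adds genes near background, and 0.63 over genes detected on all 6 arrays. That last filter, which tests fewer genes, left 16 genes called, 10 higher and 6 lower, and 19 probes. Leaving out 1 array at a time gave medians of 0.71 to 0.96, 24 to 27 genes called (15 to 16 higher, 9 to 11 lower), 28 to 31 receptor probes and 18034 to 18687 of all probes. Where no cause is named, the cause was not tested. Faint probes limit what can be said of the 15 untested genes and of the sizes given as bounds.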

Other observations

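Of 23 tested genes that make or remove the sialic acid read by Siglecs, 10 were higher and 11 lower in Magic-F1 cells (limma, adjusted over all tested probes). Among all tested genes 40.6% were higher and 47.7% lower, which is close to these shares. St6gal1, which caps glycans with the alpha-2,6-linked form, stood at −0.09 ± 0.02 in Magic-F1 cells and −4.59 ± 0.27 in control cells (SD, n = 3 each), a rise of log2 4.50 (2.21 with normexp background). St8sia4, which builds polysialic acid, rose by log2 3.12. St6galnac5 was detected on 0 Magic-F1 arrays and was at least 4.99-fold lower (log2 −0.90 with normexp background). Its fall and that of St8sia2, at least 7.23-fold lower, went with lower satellite cell and myoblast markers (9 of 9), whose part was not tested.

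Of 8 tested genes listed as known ligands of the receptors or as NKR-P1 genes, 5 were higher and 1 lower in Magic-F1 cells. Klrb1a, of the NKR-P1 family that holds receptors for Clec2 proteins, was at least 20.1-fold higher (log2 2.0 with normexp background). Whether it binds a Clec2 protein is not shown here, and Klrb1b and Klrb1f of the same family were not tested. Pianp, whose protein binds the receptor PILR alpha, rose by log2 3.79 (1.65 with normexp background), and Sap130, a nuclear protein that Mincle senses after cell death, by log2 1.20. Anxa2 fell by 0.86 on the log2 scale, and Anxa1 and Pdpn did not pass the test (adjusted p = 0.151 and 0.265 in limma).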
